A study of Mus musculus with 12 samples.

Results

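The genes described here respond to interferon or present antigen on class I molecules, in the ventromedial nucleus (VMN) of the mouse hypothalamus. They are 41 listed genes, each matched by its symbol to 1 of the 46517 Ensembl identifiers counted. By role they fall into 4 transcription factors, 4 sensors of foreign RNA or DNA, 19 antiviral effectors, 2 genes of the ISG15 system, 3 guanylate-binding proteins (GBPs) and 9 genes of class I presentation. The list was chosen by measured values: Oasl2 and other interferon genes had been seen to stand apart in 1 pool of control animals, in their levels by pool and in the difference between the groups. Their level by pool and their difference between the groups are therefore given as a description. The groups were also fitted over all genes, and nothing is read from the calls among the listed genes.

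The comparison addresses gene expression in the VMN when AMPK, an energy-sensing kinase, is blocked. All mice carried an adeno-associated virus (AAV) expressing L10, a ribosomal protein, fused to GFP, ate regular chow and were fasted overnight. The DN mice also received an AAV for a dominant-negative AMPK. CTRL mice are labelled as lacking it, although the treatment text of their samples names that virus too, so the label by sample was followed. Whether CTRL mice had any other virus in its place is not given in the sources used here, and effects of the construct and of an added virus cannot be told apart. The strain, the age and the promoter or Cre line that limits the tagged ribosomes to SF1 cells are likewise not given in the sources used here. Tissue of 6 animals made 1 pool. Each pool gave an output library, the RNA held by pulled-down tagged ribosomes (translating ribosome affinity purification), and an input library from the dissected VMN. There were 3 pools a group, hence 3 DN output, 3 CTRL output, 3 DN input and 3 CTRL input libraries, 12 in all.

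Type I interferons act through a receptor at the cell surface, and a complex that holds STAT2 and IRF9 then binds interferon-stimulated response elements (ISREs) in the promoters of antiviral genes. Interferon gamma acts mainly on gamma-activated sites (GAS) and is a strong inducer of GBPs and of class I and class II presentation genes. Class I molecules, a heavy chain such as H2-K1 with beta-2-microglobulin, carry peptides to the cell surface for cytotoxic T cells. In healthy brain, neurons carry little class I, while microglia, the resident macrophages, and endothelium carry more.

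Levels are normalized counts scaled to library size (CPM), and a gene is called expressed here at a mean of at least 1 CPM over the 12 libraries, as were 34 of the 41 listed genes and 11999 genes in all. CPM does not take gene length into account, so levels are set side by side only within a gene or as sums over a list. The libraries held 34.6 to 55.5 M counts in genes. Mitochondrial genes took 17.9 to 26.1% of them in outputs and 74.9 to 79.7% in inputs, which left 26.2 to 32.1 M nuclear counts in outputs and 8.54 to 11.3 M in inputs. The label SF1 was checked with 6 genes of VMN neurons: 5 were higher in outputs than in inputs of DN animals and 6 in those of CTRL animals (edgeR, adjusted p under 0.05). Their sum was alike in CTRL pool 3 and in the other CTRL pools, at 1.04 times their mean in outputs and 0.924 times in inputs.

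To show the sequence around the starts of these genes, promoter windows of 300 bases were read, from 250 bases before to 50 bases after the annotated start (RefSeq, build GRCm38.p6), which were on hand for 33 of the 41 genes. The ISRE was searched as GAAANNGAAA and the GAS as TTCNNNGAA, each on both strands. An ISRE match lay in 16 of the 33 (48.5%), and in 3.99% of 27025 genes with a window. It was present in the windows of all 3 sensors and all 3 GBPs with one on hand, in 6 of 14 antiviral effectors and in 2 of 8 class I genes. A GAS match lay in 8 of the 33 (24.2%), and in 9.55% of all genes. The 2 kinds of match overlapped in 1 gene, Bst2. The windows printed are those of antiviral and GBP genes with and without a match, and class I genes that stood far apart or not at all in the output of CTRL pool 3. The capitals mark ISRE matches, which are descriptions of letters and not sites shown to be bound. Ifit1 (chr19:34640639-34640938, plus strand) has 2 matches, which begin 104 and 85 bases before the start. Gbp2 (chr3:142620413-142620712, plus strand) has 1 match 59 bases before the start, and B2m (chr2:122147437-122147736, plus strand) 1 match 139 bases before it. Psme1 (chr14:55578244-55578543, plus strand) has 1 match 9 bases after the start. For Oasl2 (chr5:114896684-114896983, plus strand) and H2-K1 (chr17:34000298-34000597, minus strand) these letters are not in the window.
Ifit1: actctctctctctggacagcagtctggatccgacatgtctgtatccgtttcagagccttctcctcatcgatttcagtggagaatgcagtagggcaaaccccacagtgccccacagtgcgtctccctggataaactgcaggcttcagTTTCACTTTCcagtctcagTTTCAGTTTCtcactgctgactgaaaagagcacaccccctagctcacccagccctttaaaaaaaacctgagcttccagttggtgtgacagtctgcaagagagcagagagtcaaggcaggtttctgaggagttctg
Oasl2: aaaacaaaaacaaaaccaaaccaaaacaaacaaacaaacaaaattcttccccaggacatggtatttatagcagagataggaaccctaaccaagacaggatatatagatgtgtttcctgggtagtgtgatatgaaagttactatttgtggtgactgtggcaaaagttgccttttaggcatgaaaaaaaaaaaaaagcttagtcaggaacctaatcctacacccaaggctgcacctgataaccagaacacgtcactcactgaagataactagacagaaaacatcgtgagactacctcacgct
Gbp2: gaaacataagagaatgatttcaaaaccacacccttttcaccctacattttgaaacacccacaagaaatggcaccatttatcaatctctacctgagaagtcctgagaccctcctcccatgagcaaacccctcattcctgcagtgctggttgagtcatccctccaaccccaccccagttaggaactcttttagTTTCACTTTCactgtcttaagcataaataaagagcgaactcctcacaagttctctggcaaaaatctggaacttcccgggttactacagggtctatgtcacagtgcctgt
B2m: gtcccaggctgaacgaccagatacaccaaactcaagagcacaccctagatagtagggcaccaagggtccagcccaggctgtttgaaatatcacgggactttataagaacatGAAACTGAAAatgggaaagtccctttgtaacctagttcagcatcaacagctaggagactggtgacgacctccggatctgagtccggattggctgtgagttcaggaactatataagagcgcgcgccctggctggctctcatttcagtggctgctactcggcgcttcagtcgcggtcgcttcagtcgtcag
H2-K1: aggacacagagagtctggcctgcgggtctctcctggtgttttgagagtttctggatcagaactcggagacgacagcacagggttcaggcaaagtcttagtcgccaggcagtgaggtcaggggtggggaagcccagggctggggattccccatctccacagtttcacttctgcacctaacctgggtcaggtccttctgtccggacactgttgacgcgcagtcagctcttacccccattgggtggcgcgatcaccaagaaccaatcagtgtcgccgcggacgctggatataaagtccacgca
Psme1: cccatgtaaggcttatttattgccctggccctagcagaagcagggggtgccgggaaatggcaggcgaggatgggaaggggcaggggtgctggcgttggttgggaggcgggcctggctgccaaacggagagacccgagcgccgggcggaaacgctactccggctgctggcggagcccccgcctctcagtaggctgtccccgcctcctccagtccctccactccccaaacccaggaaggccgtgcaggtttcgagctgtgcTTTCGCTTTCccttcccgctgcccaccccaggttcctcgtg

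The main pattern was by pool and not by group. CTRL pool 3 had more of most of these genes than the other 2 CTRL pools, in its output and in its input. Its CPM plus 1 was at least 2-fold above the mean of CTRL pools 1 and 2 for 27 of the 34 expressed genes in outputs, against 9.31% of all expressed genes, and for 31 of 34 in inputs, against 8.32%. The same 27 genes passed that size in both fractions, against 2.28% of all genes. The median ratio was 4.27-fold in outputs and 5.15-fold in inputs, where all genes had 0.968-fold and 0.958-fold. In both fractions it was the highest of the 6 pools for 22 of the 34, against 3.76% of all genes. Zbp1, Psmb8 and Psmb9 reached a mean of 1 CPM only through CTRL pool 3, the pool they are then set apart by. Of all 41 listed genes, without that filter, 27 passed 2-fold in outputs and 35 in inputs. All these counts describe the pool that the list was drawn from and are no test.

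**Figure D1:**
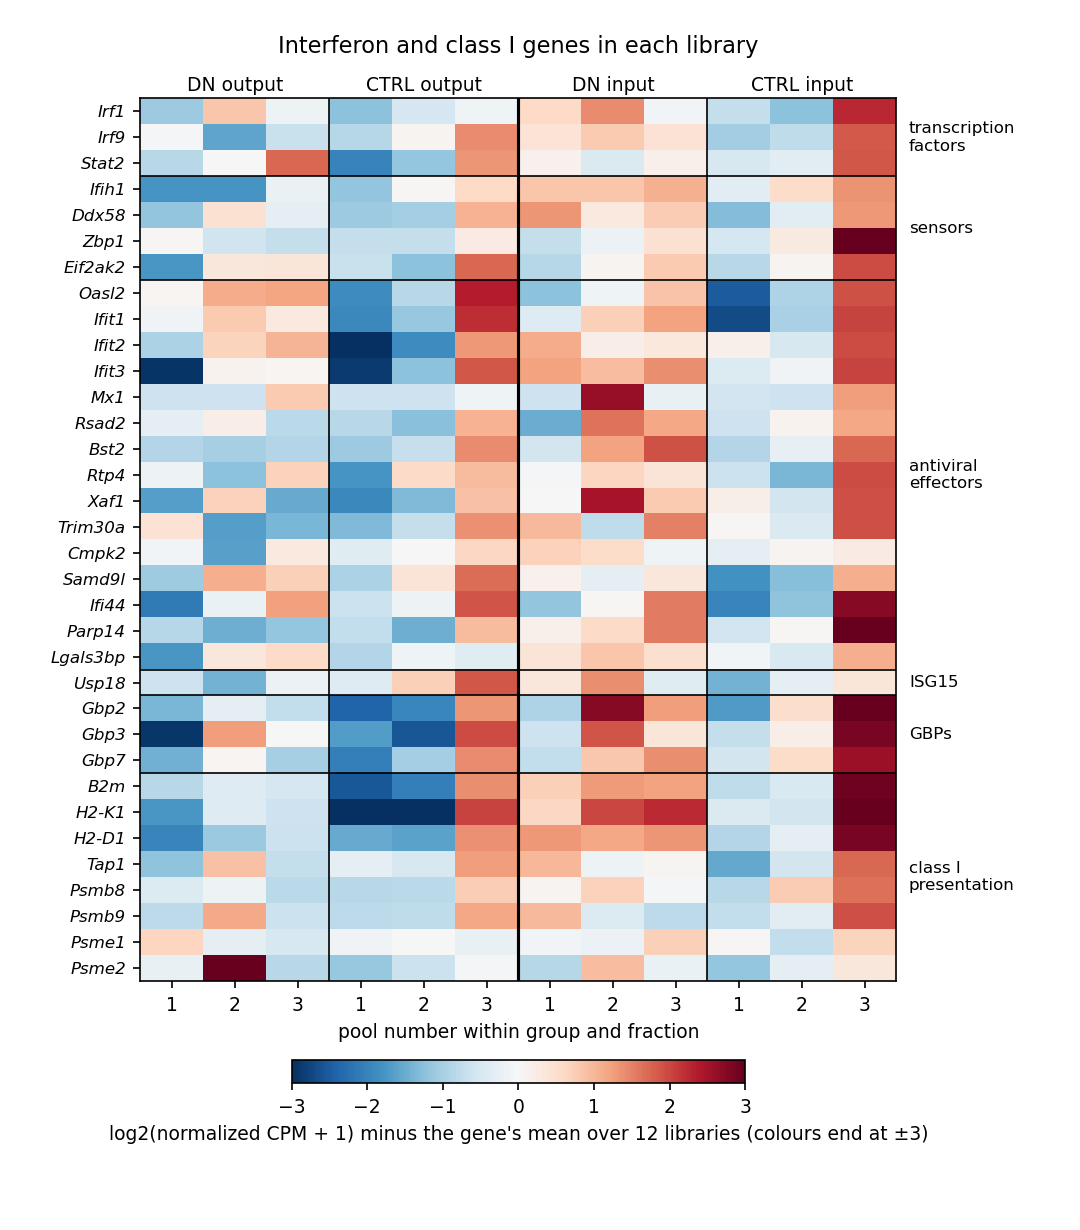
Colours give log2(normalized CPM + 1) of each of the 34 expressed genes (rows, by role) in each of the 12 libraries (columns, DN left of CTRL, outputs left of inputs), minus the gene's mean over the 12 libraries, ending at 3 above and below. The columns of CTRL pool 3 are high for most genes in outputs and in inputs, Psme1 varies little, and Psme2 is high in the output of DN pool 2.

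Among transcription factors, STAT2 and IRF9 are parts of the complex that binds ISREs. In outputs Stat2 had 3.85, 7.67 and 27.6 CPM in DN pools 1, 2 and 3, against 1.16, 2.88 and 20.5 CPM in CTRL pools 1, 2 and 3. In inputs Stat2 had 8.42, 5.34 and 8.6 CPM in the DN pools, against 5.15, 5.94 and 30.1 CPM in the CTRL pools. Pool 3 was the highest of each group in both fractions, and DN pool 3 exceeded CTRL pool 3 in outputs. In outputs Irf9 had 4.88, 1.04 and 2.90 CPM in DN pools and 2.38, 5.56 and 15.4 CPM in CTRL pools. In inputs Irf9 had 7.21, 9.63 and 7.32 CPM in DN pools and 1.98, 2.65 and 21.1 CPM in CTRL pools. CTRL pool 3 was the highest library in each fraction, and in inputs all DN pools lay between it and the other CTRL pools. IRF1 is a factor that interferon gamma induces. In outputs Irf1 had 0.177, 3.47 and 1.26 CPM in DN pools and 0.0714, 0.763 and 1.3 CPM in CTRL pools. In inputs Irf1 had 2.78, 5.71 and 1.36 CPM in DN pools and 0.522, 0.0716 and 11.1 CPM in CTRL pools. CTRL pool 3 stood apart in the input, and in the outputs DN pool 2 was the highest. IRF7, which drives type I interferon genes, was low throughout. In outputs Irf7 had 0.354, 0.0298 and 0.357 CPM in DN pools and 0, 0.280 and 1.18 CPM in CTRL pools. In inputs Irf7 had 0.357, 0.202 and 2.96 CPM in DN pools and 1.46, 0.179 and 3.21 CPM in CTRL pools, so that the groups overlapped.

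The sensors recognize foreign nucleic acid: MDA5 (Ifih1) and RIG-I (Ddx58) bind double-stranded RNA, PKR (Eif2ak2) binds it and halts translation, and ZBP1 binds nucleic acid in the Z form. In outputs Eif2ak2 had 5.10, 24.7 and 25.4 CPM in DN pools and 11.9, 7.78 and 66.3 CPM in CTRL pools. In inputs Eif2ak2 had 10.2, 20.7 and 34.4 CPM in DN pools and 10.5, 20.8 and 78.1 CPM in CTRL pools. The highest library of both fractions was CTRL pool 3, with the DN pools spread over the range below it. In outputs Ddx58 had 3.52, 13.2 and 7.41 CPM in DN pools and 3.81, 4.11 and 20.3 CPM in CTRL pools. In inputs Ddx58 had 25.0, 11.7 and 16.4 CPM in DN pools and 3.20, 7.23 and 24.6 CPM in CTRL pools. CTRL pool 3 was the highest output, while DN pool 1 and CTRL pool 3 were close in inputs. In outputs Ifih1 had 1.41, 1.42 and 6.11 CPM in DN pools and 2.61, 7.49 and 11.4 CPM in CTRL pools. In inputs Ifih1 had 13.5, 13.6 and 16.2 CPM in DN pools and 5.46, 11.0 and 20.1 CPM in CTRL pools. In every pool its output lay below its input. In outputs Zbp1 had 0.663, 0.0745 and 0 CPM in DN pools and 0, 0 and 0.953 CPM in CTRL pools. In inputs Zbp1 had 0, 0.445 and 1.24 CPM in DN pools and 0.139, 0.967 and 13.3 CPM in CTRL pools. The input of CTRL pool 3 was thus the only library above 1.24 CPM.

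The antiviral effectors include Oasl2 (chr5:114896936-114912234, plus strand, GRCm38), a protein of the oligoadenylate synthetase family, and the IFIT proteins, which bind viral RNA. In outputs Oasl2 had 111, 229 and 242 CPM in DN pools and 27.9, 59.4 and 542 CPM in CTRL pools. In inputs Oasl2 had 44.3, 96.9 and 193 CPM in DN pools and 18, 55.4 and 401 CPM in CTRL pools. All 3 DN outputs lay between CTRL pool 3 and the other CTRL pools, which is the order that the mean over CTRL pools hides. In outputs Ifit1 had 27.6, 52.0 and 37.1 CPM in DN pools and 7.06, 13.1 and 142 CPM in CTRL pools. In inputs Ifit1 had 22.8, 49.4 and 70.0 CPM in DN pools and 3.83, 14.7 and 124 CPM in CTRL pools. Here the DN pools lay between in both fractions. In outputs Ifi44 had 3.40, 15.9 and 44.1 CPM in DN pools and 11.3, 16.4 and 69.9 CPM in CTRL pools. In inputs Ifi44 had 7.42, 18.8 and 56.0 CPM in DN pools and 3.90, 7.38 and 127 CPM in CTRL pools. Pool 3 was the highest of each group in both fractions. Lgals3bp codes for a secreted protein that binds galectin 3. In outputs Lgals3bp had 7.22, 34 and 40.0 CPM in DN pools and 14.0, 24.2 and 20.6 CPM in CTRL pools. In inputs Lgals3bp had 35.1, 48.4 and 37.8 CPM in DN pools and 25.0, 19.2 and 57.6 CPM in CTRL pools. CTRL pool 3 was high in the input and ordinary in the output.

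Of the remaining effectors, Ifit2 had an output ratio of CTRL pool 3 to the other CTRL pools of 3.75 on the log2 scale, the largest of the class, and Mx1, a GTPase that blocks viral replication, one of 0.48. In outputs Ifit2 had 5.85, 20.2 and 25.9 CPM in DN pools and 0.257, 2.60 and 31.6 CPM in CTRL pools. In inputs Ifit2 had 27.9, 14.2 and 15.5 CPM in DN pools and 13.7, 8.49 and 50.7 CPM in CTRL pools. Mx1 was detected in 2 of the 6 output libraries, DN pool 3 with 1.64 CPM and CTRL pool 3 with 0.394 CPM. In inputs Mx1 had 0, 8.34 and 0.320 CPM in DN pools and 0.0348, 0 and 2.68 CPM in CTRL pools, so its highest library was a DN one. The other 9 expressed effectors were Ifit3, Rsad2, Bst2, Rtp4, Xaf1, Trim30a, Cmpk2, Samd9l and Parp14, among them viperin (Rsad2), which hinders viral replication, and tetherin (Bst2), which holds new virus at the cell surface. Their log2 ratio of CTRL pool 3 to the other CTRL pools ran from 0.77 (Cmpk2) to 3.71 (Ifit3) in outputs and from 0.34 (Cmpk2) to 3.23 (Parp14) in inputs. The ISG15 system attaches the ubiquitin-like protein ISG15 to other proteins, and USP18 removes it. In outputs Usp18 had 0.737, 0 and 1.37 CPM in DN pools and 1.03, 3.38 and 8.79 CPM in CTRL pools. In inputs Usp18 had 2.36, 6.07 and 1.08 CPM in DN pools and 0, 1.18 and 2.41 CPM in CTRL pools. The highest output was CTRL pool 3, and the highest input DN pool 2. Isg15 itself was near 0: it had 0.0295, 0.0149 and 0.921 CPM in DN outputs and 0, 0 and 0.263 CPM in CTRL outputs. In inputs Isg15 had 0.0357, 0.0405 and 1.20 CPM in DN pools and 0, 0.358 and 0.848 CPM in CTRL pools. The 7 listed genes below a mean of 1 CPM were Irf7, Isg15, Oas1a, Oas2, Mx2, Ifi35 and Tap2, and none of them passed 4.19 CPM in any library.

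The GBPs are large GTPases that attack the compartments of intracellular pathogens. By the output ratio of CTRL pool 3, Gbp3, Gbp2 and Gbp7 ranked 2, 8 and 10 of the 34 expressed genes. In inputs the log2 ratio of Gbp7 was 2.48, near the median of 2.36 over the 34 genes. In outputs Gbp3 had 0.103, 19.0 and 7.43 CPM in DN pools and 1.61, 0.405 and 31.5 CPM in CTRL pools. In inputs Gbp3 had 4.43, 30.0 and 9.80 CPM in DN pools and 4.07, 8.59 and 58.9 CPM in CTRL pools. DN pool 2 was second to CTRL pool 3 in both fractions. In outputs Gbp2 had 1.06, 3.34 and 2.17 CPM in DN pools and 0, 0.358 and 12.2 CPM in CTRL pools. In inputs Gbp2 had 1.78, 33.9 and 11.6 CPM in DN pools and 0.626, 6.59 and 62.3 CPM in CTRL pools. DN pool 2 again followed CTRL pool 3. In outputs Gbp7 had 5.30, 16.8 and 7.6 CPM in DN pools and 3.15, 7.43 and 44.9 CPM in CTRL pools. In inputs Gbp7 had 9.35, 28.9 and 44.2 CPM in DN pools and 10.7, 24.0 and 101 CPM in CTRL pools. The median log2 ratio of CTRL pool 3 over the 3 GBPs was 3.49 in outputs and 3.03 in inputs.

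In class I presentation, B2m (gene at chr2:122147686-122153083, plus strand, GRCm38) codes for the light chain, and H2-K1 (chr17:33996017-34000347, minus strand) and H2-D1 (chr17:35262730-35267499, plus strand) for heavy chains. In outputs B2m had 145, 197 and 180 CPM in DN pools and 43.3, 61.1 and 673 CPM in CTRL pools. In inputs B2m had 425, 626 and 594 CPM in DN pools and 152, 188 and 1965 CPM in CTRL pools. The 6 pools had the same order in both fractions, with CTRL pool 3 first, then DN pools 2, 3 and 1, then CTRL pools 2 and 1. In outputs H2-K1 had 3.21, 9.88 and 8.31 CPM in DN pools and 0.400, 0.716 and 57.3 CPM in CTRL pools. In inputs H2-K1 had 21, 56.6 and 66.1 CPM in DN pools and 9.53, 8.66 and 134 CPM in CTRL pools. The log2 ratio of CTRL pool 3 in outputs, 5.23, was the largest of all 34 genes, and the DN pools lay between in both fractions. In outputs H2-D1 had 2.48, 5.42 and 7.8 CPM in DN pools and 3.80, 3.53 and 34.7 CPM in CTRL pools. In inputs H2-D1 had 32.8, 29.8 and 33.7 CPM in DN pools and 6.54, 10.5 and 98.0 CPM in CTRL pools. The 3 DN inputs lay close together, below CTRL pool 3 and above the other CTRL pools. Psme1 and Psme2 code for the subunits of the PA28 activator of the proteasome. In outputs Psme1 had 53.9, 28.1 and 24.2 CPM in DN pools and 31.3, 33.7 and 28.8 CPM in CTRL pools. In inputs Psme1 had 32.3, 29.9 and 56.5 CPM in DN pools and 34.9, 20.1 and 54.8 CPM in CTRL pools. Psme1 did not follow the pattern in outputs, where its log2 ratio of CTRL pool 3 of -0.17 was the only one below 0. In inputs that ratio was 0.97. Psme2, a listed gene named here after its values were seen, had 4.97, 121 and 2.95 CPM in DN outputs. Its CTRL outputs had 2.18, 3.49 and 5.85 CPM, so that DN pool 2 alone stood out. The peptide transporter subunit Tap1 and the immunoproteasome subunits Psmb8 and Psmb9 were low, at 9.59 CPM or less in every library, with output log2 ratios of CTRL pool 3 from 1.56 to 1.94. H2-K1 and H2-D1, and likewise members of the GBP, IFIT and TRIM30 families, resemble other genes in sequence, and reads shared among such genes may have been lost or split.

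The median log2 ratio of CTRL pool 3 in outputs was 1.77 over 8 class I genes and 2.25 over 15 effectors. In inputs the medians were 2.57 and 2.25, and the difference between the classes was not tested. Psmb8 and Psmb9 were among these class I genes only through the level of CTRL pool 3. The order in outputs depended on the processing: with 0.25 CPM added in place of 1 the medians were 3.13 for class I genes and 2.78 for effectors, and without mitochondrial genes 2.72 and 2.57. In outputs class I genes ran from -0.17 (Psme1) to 5.23 (H2-K1) and effectors from 0.11 to 3.75. In inputs class I genes ran from 0.97 to 3.74 and effectors from 0.34 to 4.27. A class level was formed as the mean over its genes of log2(CPM + 1) minus each gene's mean over the 12 libraries. For all 34 genes it was -0.96, -0.05 and -0.18 in DN outputs and -1.36, -0.86 and 1.13 in CTRL outputs. In inputs it was 0.08, 0.77 and 0.70 in DN pools and -0.84, -0.34 and 1.89 in CTRL pools. CTRL pool 3 was the highest of 6 in each fraction, CTRL pool 1 the lowest, and CTRL pool 2 below the DN inputs and below DN outputs 2 and 3.

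**Figure D2:**
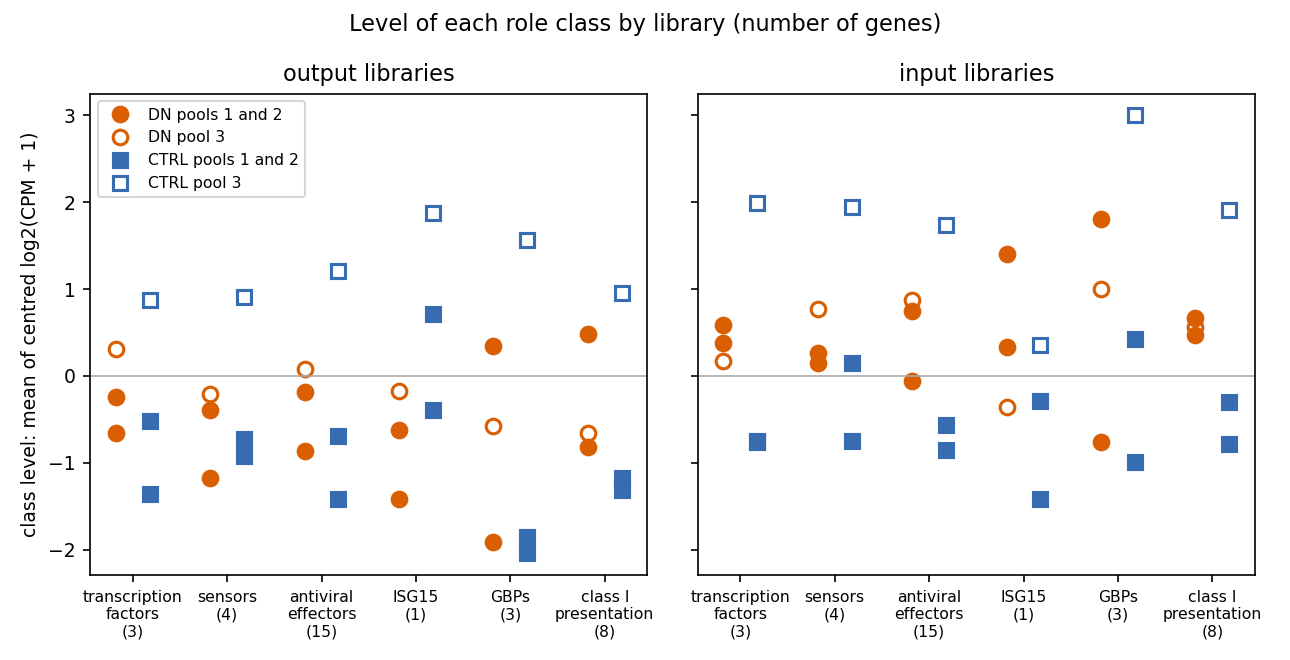
Each point is 1 library, the vertical axis is the class level (mean over the class's genes of log2(CPM + 1) minus the gene's mean over 12 libraries), and the horizontal axis lists the role classes with their number of expressed genes; outputs are left, inputs right. CTRL pool 3 (open squares) is the highest in every class except the ISG15 system in inputs, which is Usp18 alone.

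Input and output of a pool were read from the same animals, and the standing of CTRL pool 3 was shared by its 2 libraries gene by gene only in part. Its log2 ratios in outputs and inputs correlated across the 34 genes with Pearson's r = 0.58 and Spearman's rho = 0.54, a description across genes, which are not independent replicates. The same pool was the highest in both fractions for 23 of the 34 genes, against 19.0% of all genes. Irf1 and Zbp1 stood apart mainly in the input, with output log2 ratios of 0.70 and 0.97 and input log2 ratios of 3.22 and 3.21. Ifi44 had a log2 ratio of 2.25 in outputs and 4.27 in inputs. Ifit2 and Ifit3 had log2 ratios of 3.75 and 3.71 in outputs, and 2.09 and 2.28 in inputs. Across the 34 genes, output and input levels of a pool correlated with r from 0.72 to 0.90, the highest being that of CTRL pool 3.

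**Figure D3:**
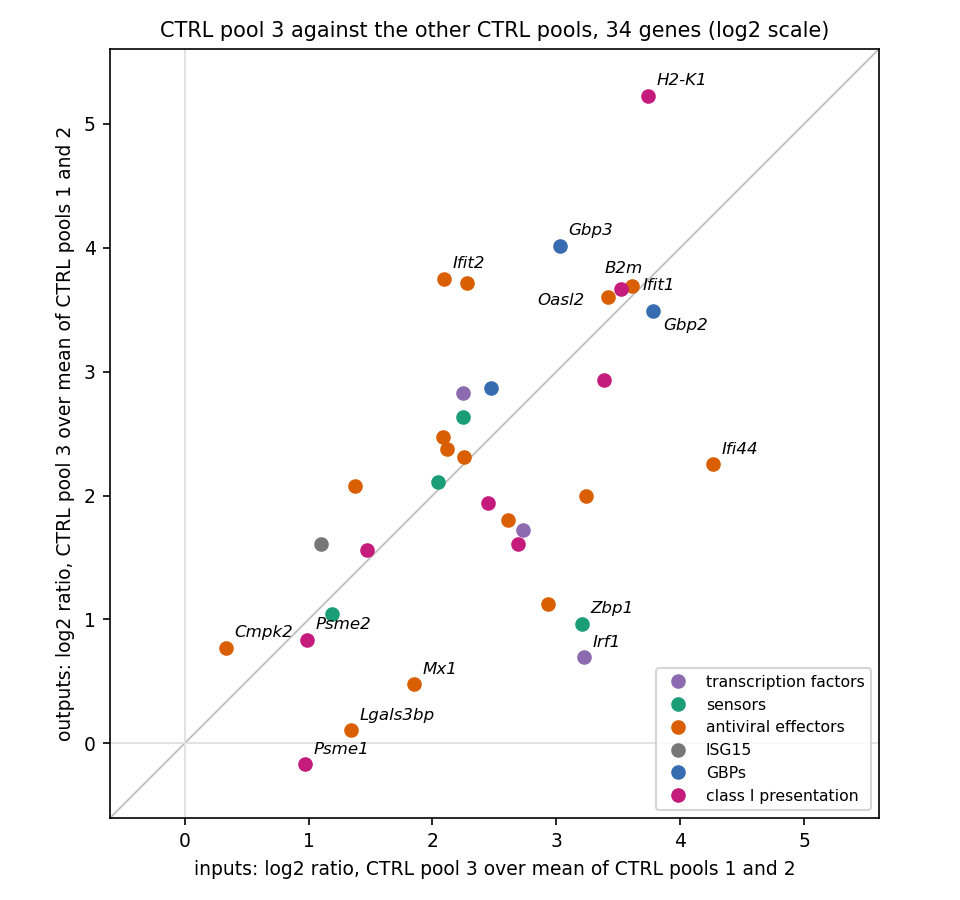
Each point is 1 of the 34 expressed genes, coloured by role; the axes give the log2 ratio of CPM plus 1 in CTRL pool 3 to the mean of CTRL pools 1 and 2, in outputs (vertical) and inputs (horizontal), with the line of equal ratios. All points but Psme1 are above 0 on both axes, H2-K1 is the highest, and Irf1, Zbp1 and Ifi44 lie well below the line.

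Beside this pattern, genes outside the list were read in CTRL pool 3. Of 7435 protein-coding genes with a mean of at least 5 CPM in CTRL outputs, the 10 whose smaller log2 ratio over the 2 fractions was largest were Gbp4, Ifi204, Cxcl9, Iigp1, Ifi47, Ifi207, H2-Q4, Gbp6, Irgm2 and Cd274. The smaller ratio ran from 4.17 for Gbp4 to 2.80 for Cd274, and 8 of the 10 were in the lists of related genes used here. In 9 of the 10, all but Cd274, CTRL outputs 1 and 2 averaged under 5 CPM, so these genes entered the ranking only through CTRL pool 3, and the count of 8 supports nothing. Cd274 codes for the checkpoint ligand PD-L1. It had 60.9, 75.8 and 44.7 CPM in DN outputs, against 32.9, 47.5 and 286 CPM in CTRL outputs. In inputs it had 39.9, 72.6 and 83.8 CPM in DN pools, against 11.5, 41.3 and 302 CPM in CTRL pools. CTRL pool 3 stood far above the rest, and the DN outputs overlapped those of CTRL pools 1 and 2. The T cell attractant Cxcl9 had 5.81, 4.86 and 2.97 CPM in DN outputs and 0, 3.0 and 38.0 CPM in CTRL outputs. In inputs Cxcl9 had 14.5, 34.4 and 9.72 CPM in DN pools and 0.487, 5.98 and 105 CPM in CTRL pools, again with CTRL pool 3 alone on top.

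The interferon genes themselves were hardly seen. Of 10 listed, 8 had no count in any of the 12 libraries, and Ifna5 had 3 counts in all, in the input of CTRL pool 3. Ifng, the gene of interferon gamma, had counts only in CTRL pool 3, at 0.690 CPM in its output and 3.57 CPM in its input, and 0 in the other libraries. The input of that pool also held more RNA of immune cells. Its T and NK cell markers summed to 35.1 CPM, against 0.557 and 0.215 CPM in the other CTRL inputs, with 9 of 10 above both. Cd3e gave 25.0 CPM of that sum. In its output the T and NK cell sum was 2.73 CPM, with Cd3d, Cd3e and Cd3g, which define T cells, at 0. Microglia markers summed to 390 CPM in the input of CTRL pool 3, against 84.5 and 96.6 CPM, with 11 of 11 above both other CTRL inputs. In its output they summed to 35.1 CPM, against 10.4 and 29.8 CPM, with 6 of 11 above both. DN inputs had microglia sums of 158, 167 and 183 CPM, and DN outputs 27.2, 25.0 and 31.3 CPM. Markers of monocytes and macrophages summed to 20.1 CPM in the output of CTRL pool 3, against 2.64 and 0.140 CPM in the other CTRL outputs, and to 32.0 CPM in its input, against 11.9 and 9.45 CPM, with Ms4a7 and Cd163 at 0 in that output. Endothelial markers summed to 97.5 CPM in its input, against 29.6 and 43.8 CPM, with 4 of 7 above both. Markers of reactive astrocytes summed to 95.1 CPM in its input, against 35.9 and 36.3 CPM, with 4 of 5 above both. All markers of B cells and neutrophils were at 0 in both of its libraries. The share of all genes above both other CTRL libraries is not given here, so the counts of markers above both are a description only. The part of these cells in the pattern of CTRL pool 3 was not tested. In tissue libraries, fewer cells of a type and less RNA per cell cannot be told apart.

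Class II presentation genes, by which immune cells show peptides to helper T cells, were also highest in CTRL pool 3. The 7 class II genes summed to 33.4 CPM in the output of CTRL pool 3, against 2.01 and 2.96 CPM in the other CTRL outputs. In its input they summed to 235 CPM, against 4.31 and 11.0 CPM. DN outputs had 5.30, 7.23 and 1.36 CPM, and DN inputs 46.5, 166 and 25.6 CPM. Cd74, the invariant chain, had 32.5, 106 and 17.3 CPM in DN inputs and 3.13, 9.77 and 133 CPM in CTRL inputs. H2-Ab1 had 8.74, 21 and 3.36 CPM in DN inputs and 0.313, 0.215 and 52.7 CPM in CTRL inputs. H2-Aa had 4.18, 23.7 and 4.72 CPM in DN inputs and 0.383, 0.465 and 33.2 CPM in CTRL inputs. DN pool 2 and CTRL pool 3 were the highest in each. Of 54 other interferon-stimulated genes, 44 were above both other CTRL libraries in the output of CTRL pool 3 and 49 in its input, and their sum was 5.53 and 6.07 times the mean of the other CTRL pools. The share of all genes above both is not given here. Herc6, an E3 ligase for ISG15 in mice, had 8.28, 28.2 and 15.6 CPM in DN outputs and 5.75, 20.9 and 51.5 CPM in CTRL outputs. Receptors and signalling genes were closer together: their sum in CTRL pool 3 was 1.19 times that of the other CTRL pools in outputs and 1.70 times in inputs. Jak1, a kinase of interferon receptors, had 73.5, 65.7 and 98.9 CPM in DN outputs and 68.6, 88.0 and 61.8 CPM in CTRL outputs, with overlapping groups. Canx, a chaperone of class I folding, had 226, 182 and 239 CPM in DN outputs and 217, 187 and 226 CPM in CTRL outputs, likewise overlapping.

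The rule for these genes did not use the ratio of output to input, which was tested in the same libraries. Earlier results of these data were known when the genes were listed, so the choice may not be independent of it. The class I genes B2m, H2-K1 and H2-D1 were lower in outputs than in inputs of DN animals by edgeR and by DESeq2, while which effectors and GBPs were called depended on the method. Of 34 listed genes tested, 3 had lower levels in the outputs of DN animals than in their inputs and none higher (edgeR's quasi-likelihood test, Benjamini-Hochberg adjusted p under 0.05), against 1.54% of 13041 genes lower. All 3 were class I genes, of 7 class I genes tested, and none of 15 effectors was called in that fit. DESeq2 called 7 lower, against 4.76% of all genes, adding Ifih1, Gbp2 and the effectors Parp14 and Bst2; it gave no adjusted p for Psme2. With no filter on low counts edgeR called 4 lower, against 2.3% of all genes, adding Gbp2, and called Oasl2 and the class I gene Psme2 higher, 2 genes against 2.37%. Psme2 had 121 CPM in the output of DN pool 2, against 4.97 and 2.95 CPM in the other DN outputs. In DN pool 3 its output was below its input (log2 ratio -0.62). B2m fell by 1.67 on the log2 scale (SE 0.19, adjusted p = 0.000393 by edgeR, lower in 3 of 3 pools), with 145 to 197 CPM in DN outputs against 425 to 626 CPM in DN inputs. Over the alternatives its log2 difference stayed between -1.70 and -1.63 and its adjusted p between 3.1e-14 and 0.0238. H2-K1 fell by 2.76 (SE 0.55, adjusted p = 0.0170 by edgeR) and H2-D1 fell by 2.62 (SE 0.52, adjusted p = 0.0166 by edgeR), each lower in 3 of 3 pools. The call of H2-K1 held without DN pool 1 (adjusted p = 0.0136 by edgeR) but not without DN pool 2 (0.103) or 3 (0.182). For H2-D1 no call remained when DN pool 1, 2 or 3 was left out (adjusted p = 0.115, 0.108 or 0.108 by edgeR). The median over the 34 genes was -1.17, against 0.00 over all genes, and 30 of 34 were negative.

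In CTRL animals, whose pools were further apart, the fit of the groups gave no call among 35 listed genes by edgeR, against 1.42% of 13456 genes lower. DESeq2 called none of the 31 for which it gave an adjusted p, against 1172 of the 13456 genes in either direction. It gave no adjusted p for B2m, H2-K1, H2-D1 and Ifi44. None of the 35 listed genes had an unadjusted p under 0.05 by edgeR, against 2200 of the 13456 genes. By DESeq2 2 of the 35 had one, against 2584 of the 13456 genes. B2m had a log2 difference of -1.60 with an SE of 1.08 (adjusted p = 0.517 by edgeR). The median was -0.74, against 0.02 over all genes, and 30 of 35 were negative. Output and input of a pool come from the same animals, so the fit with pool as a block sets each output against its own input. With the block, 4 listed genes were lower in CTRL outputs, against 1.9% of all genes. B2m fell by 1.67 (SE 0.13, adjusted p = 4.4e-05 by edgeR), H2-K1 fell by 3.07 (SE 0.56, adjusted p = 0.0119 by edgeR), Gbp2 fell by 3.69 (SE 0.68, adjusted p = 0.0133 by edgeR) and Gbp7 fell by 1.55 (SE 0.28, adjusted p = 0.0128 by edgeR). H2-D1 had -1.30 (SE 0.32, adjusted p = 0.0501 by edgeR). Without CTRL pool 3 and without the block, B2m fell by 1.71 (SE 0.24, adjusted p = 0.0114 by edgeR). Over all alternatives the adjusted p in CTRL animals ran from 4.4e-05 to 0.699 for B2m, from 0.0119 to 0.826 for H2-K1, from 0.0133 to 0.749 for Gbp2 and from 0.0128 to 0.767 for Gbp7.

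With pool as a block in DN animals, B2m, H2-K1 and H2-D1 were again lower, 3 listed genes against 1.4% of all genes. Oasl2 was higher by 0.96 (SE 0.23, adjusted p = 0.0484 by edgeR), 1 listed gene against 1.63% of all genes. It was the only 1 of the 34 genes with more CPM in the output than in the input of all 6 pools, against 9.56% of all genes. Its log2 ratios were 1.3, 1.23 and 0.32 in DN pools and 0.61, 0.10 and 0.43 in CTRL pools. The fit with the filter and without the block did not call Oasl2 (log2 0.79, SE 0.43, adjusted p = 0.423 by edgeR), and over the alternatives its adjusted p ran from 0.0228 to 0.765. The log2 ratios of B2m were -1.54, -1.66 and -1.72 in DN pools and -1.79, -1.61 and -1.54 in CTRL pools. Across pools whose B2m level differed widely, its ratio of output to input thus stayed between -1.79 and -1.54. H2-K1 had -2.39, -2.40 and -2.85 in DN pools and -2.91, -2.49 and -1.21 in CTRL pools, where pool 3 was the least negative. H2-D1 had -3.28, -2.26 and -1.98 in DN pools and -0.65, -1.34 and -1.47 in CTRL pools. Ifit1 had 0.27, 0.07 and -0.90 in DN pools and 0.74, -0.15 and 0.19 in CTRL pools, near 0 in most.

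Output was below input in all 6 pools for 12 of the 34 expressed genes, against 8.41% of all genes: Ifih1, Ifit3, Bst2, Xaf1, Trim30a, Parp14, Gbp2, Gbp3, Gbp7, B2m, H2-K1 and H2-D1. Without CTRL pool 3, an alternative added after the data were seen, 12 genes were below in the other 5 pools, against 10.5% of all genes. All 3 GBPs were among the 12, 5 of 15 effectors and 3 of 8 class I genes. Class I genes had median log2 ratios by pool from -1.65 to -0.10, GBPs from -2.48 to -0.72 and effectors from -0.89 to -0.15, while the medians over all genes lay between 0.00 and 0.03. No test compared the classes with each other. Tap1, Psmb9, Psme1 and Psme2 had ratios on both sides of 0.

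**Figure D4:**
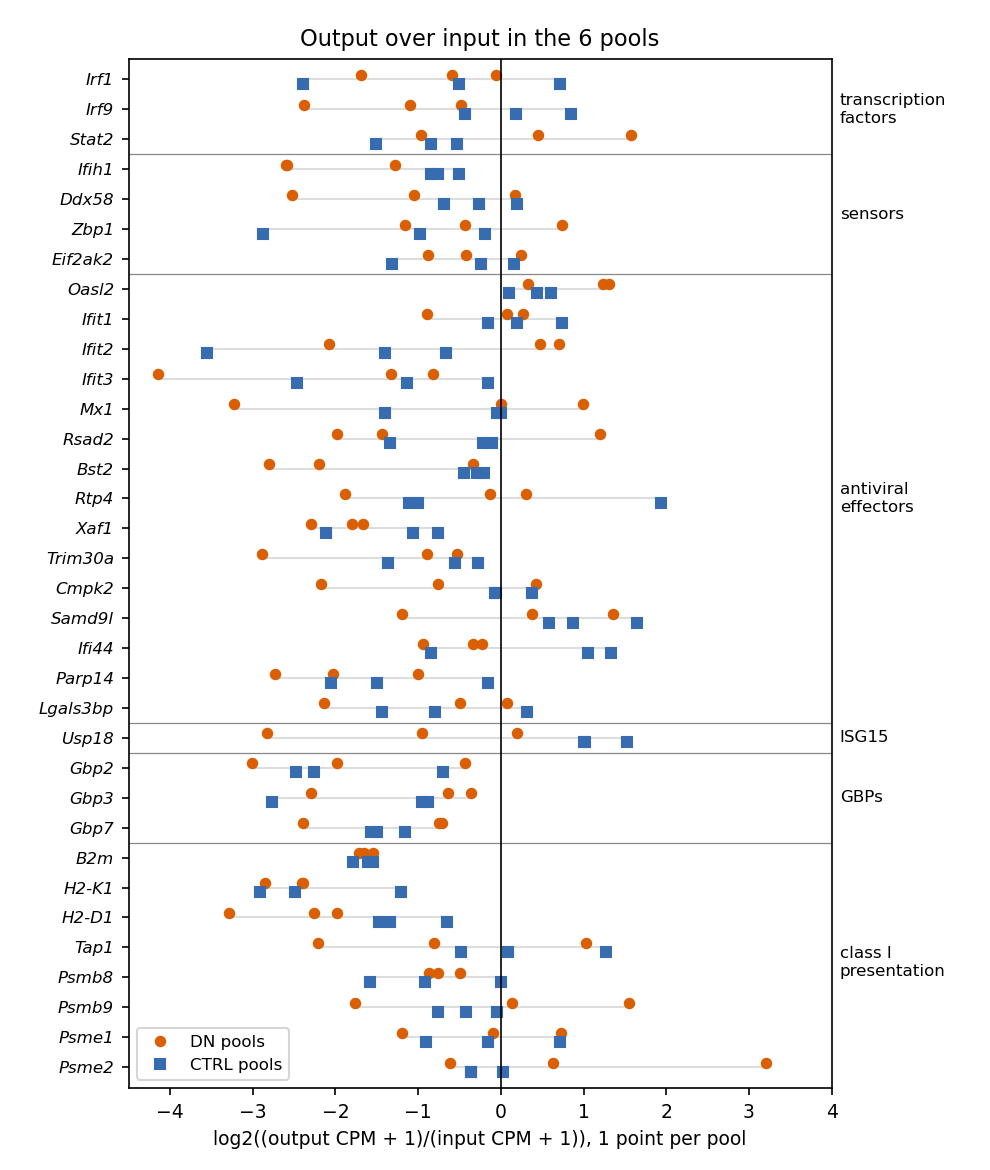
Each point is 1 pool of 1 of the 34 expressed genes (rows, by role), circles DN and squares CTRL; the horizontal axis is the log2 ratio of output CPM plus 1 to input CPM plus 1. The points of B2m lie close together near -1.63, those of Oasl2 are all above 0, and most other genes spread over both sides or lie below 0.

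The ratio was not shown to differ between the groups. The interaction of group and fraction gave no call among 40 listed genes by edgeR, against 0.0% of 15011 genes. An unadjusted p under 0.05 by edgeR was seen for 3 of the 40, against 933 of the 15011 genes. DESeq2 gave no call among the 37 with an adjusted p, against 99 of the 15011 genes, and gave no adjusted p for B2m, H2-D1 and Psme2. For B2m the difference between the groups' log2 ratios was -0.09 (SE 1.24), and 0.01 with pool as a block (95% interval -0.39 to 0.41). For H2-D1 it was -1.16 (SE 1.27), and -1.47 with the block (95% interval -2.71 to -0.23, adjusted p = 1.0 by edgeR). Usp18 had log2 ratios of -0.95, -2.82 and 0.19 in DN pools and 1.02, 1.0 and 1.52 in CTRL pools. Its interaction was -4.04 (SE 2.23, adjusted p = 0.840 by edgeR), at levels of 8.79 CPM or less. Among the expressed listed genes, the ratios of DN and CTRL pools did not overlap for Usp18, H2-D1, Ifih1 and Irf9. The share of all genes without overlap was not counted, so nothing is read from this.

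Markers of several other cell types were lower in outputs as well, beside the genes called. Microglia markers summed to 25.0 to 31.3 CPM in DN outputs against 158 to 183 CPM in DN inputs, and to 10.4 to 35.1 CPM in CTRL outputs against 84.5 to 390 CPM in CTRL inputs. The shares of all genes called lower were 1.54% in DN animals, 1.42% in CTRL animals and 1.9% in CTRL animals with the block. Of 9 microglia markers tested, 3 were lower in DN outputs and 1 in CTRL outputs, or 5 in CTRL outputs with the block. Endothelial markers summed to 4.48 to 6.53 CPM in DN outputs against 27.6 to 45.6 CPM in DN inputs, and to 6.32 to 16.1 CPM in CTRL outputs against 29.6 to 97.5 CPM in CTRL inputs. Of 7 astrocyte markers, 5 were lower in DN outputs and 6 in CTRL outputs. The median log2 difference over the 9 microglia markers in DN animals was -2.27, beside -1.67 for B2m; the gap between them was not tested. The part of these cells in the ratios was not tested. Class II genes were lower in outputs too: 3 of 4 tested in DN animals, which were Cd74, H2-Aa and H2-Ab1, and none of 6 in CTRL animals, or 2 of 6 with the block. Other interferon-stimulated genes were lower in 3 of 36 cases in DN animals and in 1 of 41 in CTRL animals, or 7 of 41 with the block. None of the 14 other class I genes and none of the 16 and 17 receptor and signalling genes tested in DN and CTRL animals was called, with or without the block. Of interferon genes and chemokines 2 were tested, and Cxcl10 was lower in CTRL outputs with the block.

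Between DN and CTRL, the direction of most of these genes turned on CTRL pool 3, and since the list was drawn with this contrast known, the values are a description. In outputs none of 34 listed genes was called, against 0.0% of 13333 genes, and in inputs none of 36, against 0.00756% of 13221 genes, which is 1 gene. In each fraction 1 listed gene had an unadjusted p under 0.05 by edgeR, against 721 of all genes tested in outputs and 589 in inputs. DESeq2 called none of the 30 and 34 genes for which it gave an adjusted p in outputs and inputs, which leaves out B2m, H2-K1, Oasl2 and Psme2 in outputs and B2m and H2-D1 in inputs. Over all genes DESeq2 called 58 of 13333 in outputs and 2 of 13221 in inputs. With all 3 CTRL pools, the log2 ratio of mean CPM plus 1 had a median of -0.38 over the 34 expressed genes in outputs, with 7 of 34 above 0, and of -0.10 in inputs, with 13 of 34 above 0. Without CTRL pool 3 the medians were 0.71 in outputs, with 28 of 34 above 0, and 1.34 in inputs, with 34 of 34 above 0. In the fits without that pool, 52.4% of all genes were positive in outputs and 53.5% in inputs. Zbp1, Psmb8 and Psmb9 are among the 34 only through CTRL pool 3. Without it Zbp1 had 0.0080 and Psmb8 0.10 in inputs. Of the 7 listed genes below 1 CPM, Mx2 had -0.58 and Ifi35 -0.02 in inputs without it, and the rest were above 0. Without that pool the fit called none of 34 listed genes higher in DN outputs, against 0.0% of all genes. In inputs it called 1 of 38 higher, B2m with a log2 difference of 1.69 (SE 0.20), against 0.0571% of all genes. Nothing is read from these counts. By class, the input medians without CTRL pool 3 were 1.45 for transcription factors, 0.60 for sensors, 1.44 for effectors, 1.10 for GBPs and 1.08 for class I genes.

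**Figure D5:**
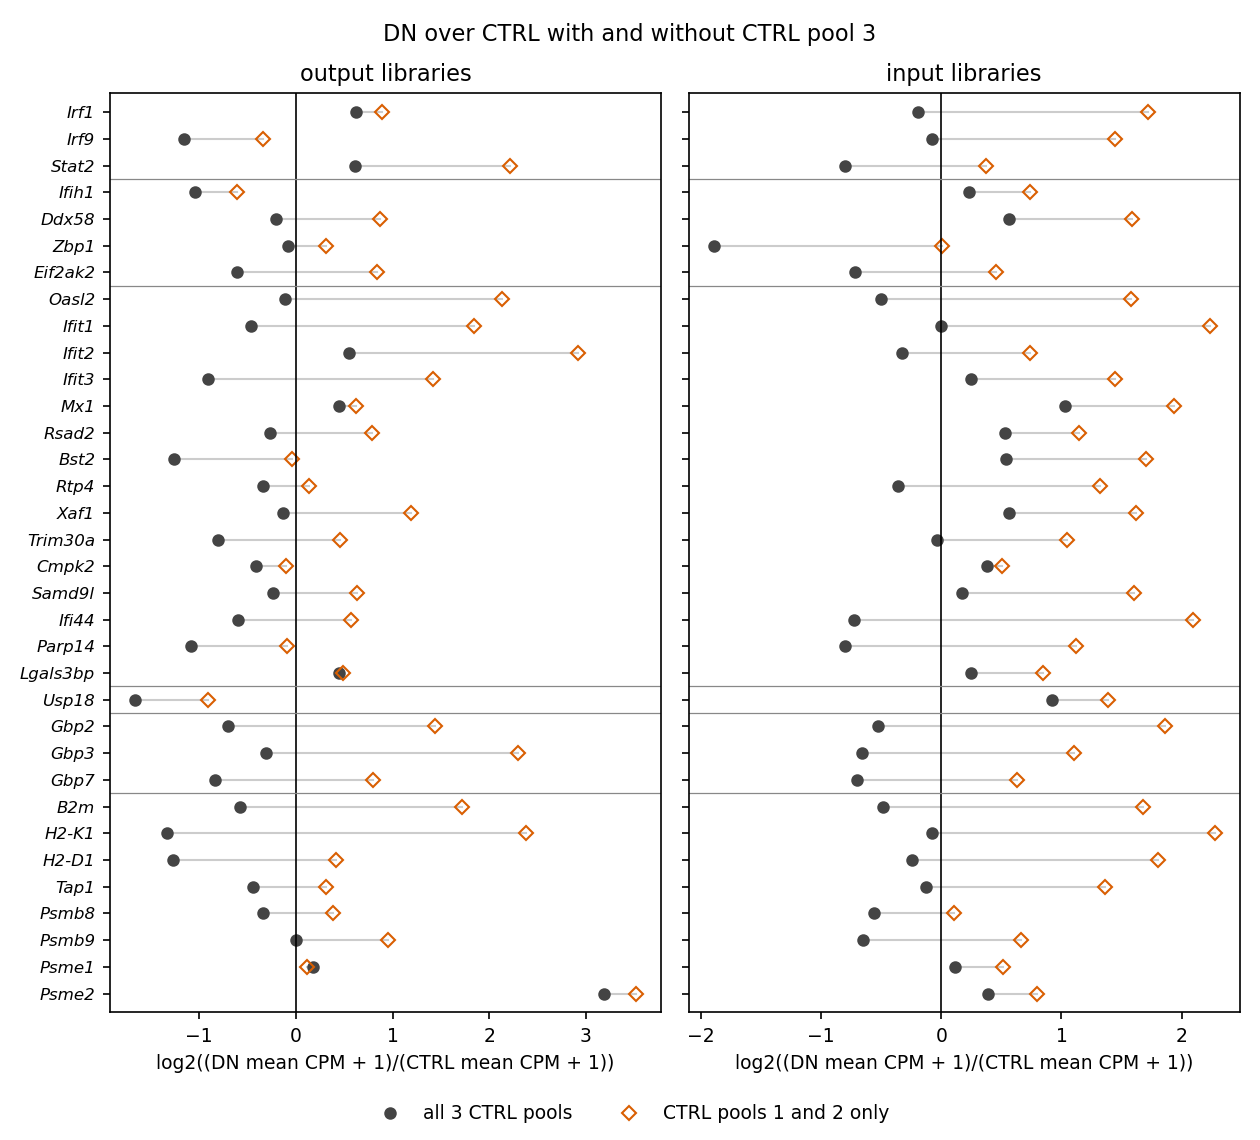
For each of the 34 expressed genes (rows, by role), the log2 ratio of the DN mean CPM plus 1 to the CTRL mean CPM plus 1 is given with all 3 CTRL pools (filled circles) and with CTRL pools 1 and 2 only (open diamonds), for outputs (left) and inputs (right). With pools 1 and 2 only, all 34 genes lie above 0 in inputs and 28 of 34 above 0 in outputs.

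Gene by gene, none of the 34 expressed genes had all DN libraries above all CTRL libraries, or all below them, in either fraction. Of the other 7 listed genes, Mx2 had 0.0357, 0 and 0 CPM in DN inputs, against 0.591, 0.430 and 3.39 CPM in CTRL inputs, so that its groups did not overlap at levels near 0. How many of all genes had groups without overlap is not given here, so nothing is read from these statements. All 3 DN outputs were above CTRL pools 1 and 2 for 8 of the 34 genes, against 9.8% of all genes: Stat2, Oasl2, Ifit1, Ifit2, Rsad2, Gbp2, B2m and H2-K1. For 7 of these, all but Stat2, the DN outputs were also below CTRL pool 3. All 3 DN inputs were above CTRL pools 1 and 2 for 16 of the 34, against 9.94% of all genes, and for 15 of them, all but Ddx58, they were also below CTRL pool 3. Of class I genes, B2m and H2-K1 showed this in both fractions, and H2-D1 and Tap1 in inputs. The DN pools also had more microglia RNA than CTRL pools 1 and 2 in inputs, with sums of 158 to 183 CPM against 84.5 and 96.6 CPM. Class II sums in inputs were 25.6 to 166 CPM in DN pools against 4.31 and 11.0 CPM. The part of these cells in the difference was not tested. Each group rests on 3 pools, and p-values measure the spread between those pools.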

How the data were processed

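RNA-seq libraries from 6 pools of 6 animals, amplified with NuGEN Ovation chemistry per the labels' protocols, were analysed from read counts per Ensembl gene as deposited by the authors. The submitters' processing notes name cutadapt 1.3, STAR 2.4.2a, HTSeq 0.6.1 and build GRCm38. The sources used here give neither annotation release nor strand setting, so overlapping and antisense genes cannot be told apart. The 5 classes of reads without a gene (16.1 to 26.1% of reads) were left out. Symbols came from GENCODE mouse release 21, which matched 98.9% of identifiers.

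Counts were tested over all genes with edgeR 4.0.16 in R 4.3.3 (TMM, filterByExpr with a minimum count of 10 and a total of 15, quasi-likelihood test, two-sided, Benjamini-Hochberg, threshold 0.05), on the libraries compared, or on all 12 for the interaction. Groups came from the characteristics of each sample. Descriptive ratios used TMM-normalized CPM with 1 added. No 2 libraries held identical counts. The members and lists were chosen with earlier results of these data known.

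Input and output of a pool come from the same animals, so the number pairs them; their deviations from the group means correlated at 0.0106, 0.00692 and 0.024 in DN pools and at 0.0692, 0.0291 and 0.143 in CTRL pools over 15011 genes. DN and CTRL pools share only a number, and their deviations correlated at 0.0124, 0.0105 and 0.00635 in outputs. In inputs those correlations were 0.004, -0.0174 and -0.0168. The values of input with output in DN pools 1 and 2 thus lay within the range of pools that share only a number. Alternatives were DESeq2 1.42.0, its size factors, no filter on low counts, no mitochondrial genes, the replicate block, each replicate left out, and 0.25 added instead of 1. Scripts were tested on simulated data.

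Values by library are given for the 4 members of each role class with the highest mean CPM, members called, and the 3 with the largest and smallest output ratio of CTRL pool 3. Other genes are named as the 10 nearest in pattern or among the 3 highest of a list; Psme2, Cmpk2 and the markers Cd3e, Cd3d and Cd3g were named after their values were seen, as were Ifng, Ifna5, Ms4a7 and Cd163.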

Additional observations from a re-analysis of the deposited data

How the results depend on the processing

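Of 49 counts of listed genes called under alternatives, 40 were within 1.5 times the reported one. Against 3 in DN output over input, DESeq2 gave 7, no filter on low counts 6, and leaving out a replicate 1 to 2. Against 0 in CTRL output over input, no filter gave 1, the replicate block 4, and leaving out a replicate 0 to 1. DN over CTRL inputs gave 0 to 1 with a replicate left out, and the interaction 1 with no filter, which was Psme2. Over all genes, the count for DN output over input was 441, with DESeq2 1124, no filter 976 and a replicate left out 115 to 148. For CTRL it was 431, with DESeq2 1172, no filter 903 and a replicate left out 45 to 214. DN over CTRL outputs had 0, and DESeq2 58. DN over CTRL inputs had 1, DESeq2 2, no filter 39, and 0 with DESeq2 size factors, without mitochondrial genes or with the block; a replicate left out gave 0 to 8. The interaction had 0, DESeq2 99 and no filter 54.

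Median log2 ratios of CTRL pool 3 with 0.25 added were 2.78 (outputs) and 2.84 (inputs) for effectors and 3.13 and 3.48 for class I genes; without mitochondrial genes the class I values were 2.72 and 3.27 and the effector values 2.57 and 2.74. The other 18 of 24 such values moved by less than the spread.

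Without CTRL pool 3 the log2 difference of DN over CTRL was positive for 28 of 34 listed genes in outputs, against 8 of 34 with it, and for 37 of 38 in inputs, against 13 of 36. Of all genes, 52.4% were positive in outputs without it and 50.8% with it, and 53.5% and 52.2% in inputs. Values are given for 4 of the genes that reversed. In outputs, B2m had -0.58, 0.64 with the replicate block and -1.08 to 1.74 with a replicate left out. H2-K1 had -1.45, 1.85 with the block and -2.02 to 3.67. Oasl2 had -0.11, 1.01 with the block and -0.63 to 2.15. Ifit1 had -0.48, 0.83 with the block and -1.0 to 1.94. In inputs, B2m had -0.48, 0.60 with the block and -0.97 to 1.69. H2-K1 had -0.07, 0.96 with the block and -0.57 to 2.4. Oasl2 had -0.50, 0.37 with the block and -1.16 to 1.61. Ifit1 had a value near 0, 0.0066 with no filter, 1.21 with the block and -0.54 to 2.36. The highest of each range left out CTRL pool 3; without DN pool 1, Oasl2 outputs had 0.17 and the inputs of H2-K1 and Ifit1 0.27 and 0.32. Ifit1 in DN output over input had -0.53 to 0.13 with a replicate left out.

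The replicate block for output over input, where the number pairs the libraries, is given beside those results. Between DN and CTRL the pools share only a number. The cause of the changes was not tested. Inputs held 8.54 to 11.3 M nuclear counts, which limits genes near 1 CPM.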
